A study of Mus musculus with 6 samples.

Results

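The genes described here are 10 antioxidant and NRF2-type defence genes, *Nqo1*, *Hmox1*, *Gclc*, *Gclm*, *Gsr*, *Srxn1*, *Txnrd1*, *Cat*, *Sod1* and *Sod2*, taken by symbol from 24421 gene symbols counted by RNA-Seq. They were read in 3T3-L1 adipocytes, fat cells differentiated in culture from a mouse preadipocyte line (strain given as C57BL/6). Every culture received DMEM with 10% CS, insulin (870 nM), TZD (5 µM), Dex (1 µM) and IBMX (500 µM), the last 2 withdrawn on day 3. On day 7 cells were infected with 100 pfu/cell of an adenovirus carrying *LacZ* (AdLacZ, the control) or codon-optimized *Lmo3* (Ad*Lmo3*), and RNA was taken 72 h later from 3 separate infections per virus. No uninfected culture was among the samples, so both groups carry the effects of adenoviral infection.

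NRF2, encoded by *Nfe2l2*, is a transcription factor that KEAP1 keeps low by directing it to degradation. Oxidants and electrophiles free it to pair with small MAF proteins on antioxidant response elements. Its classical targets make and recycle glutathione, recycle thioredoxin, reduce quinones and degrade heme. Superoxide dismutases and catalase, which clear superoxide and hydrogen peroxide, are in part under other regulators, and in fat cells these enzymes work beside a high flux of fatty acids through mitochondria and peroxisomes.

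None of the 10 genes passed the threshold between the groups (adjusted p-value under 0.05, edgeR's quasi-likelihood test adjusted over all 12766 tested genes, of which 4.28% passed, 2.71% higher and 1.57% lower in Ad*Lmo3* libraries). At an unadjusted p under 0.05 there were 3 of 10, *Sod1*, *Gsr* and *Sod2*, where 20.6% of all tested genes were. With DESeq2, 2 of 10 passed, *Sod1* and *Gsr*, where 8.55% of its tested genes did, and with limma voom none did. The median log2 fold change of the 10 was -0.02, that of all tested genes 0.00, with 5 genes above and 5 below 0, where 50.4% of all tested genes were above 0. All 10 were well counted, from 286 reads for *Nqo1* to 37799 for *Hmox1* per library.

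The start regions were searched for a form of the antioxidant response element core, TGACNNNGC, close to the transcription start. RefSeq windows from 250 bases before to 50 bases after the start (GRCm38.p6) were found for 7 of the 10 genes, in 9 windows because *Txnrd1* has 3, and were not matched for *Hmox1*, *Gclc* and *Gsr*. The core TGACNNNGC, searched on both strands, was present in 4 of the 9 windows, and in 12.4% of 32817 windows of mouse genes. The windows with a core belong to 4 of the 7 genes, *Srxn1*, *Gclm*, *Txnrd1* and *Sod1*. The related AP-1-type motif TGANTCA, which overlaps the core where both letters fit, was found in *Srxn1* alone and in 7.81% of all windows. *Srxn1* and *Sod1* are printed in full because they had the smallest difference of the 10 and the smallest p-value, with both motifs in capitals.
Srxn1, chr2:152105274-152105573, plus strand: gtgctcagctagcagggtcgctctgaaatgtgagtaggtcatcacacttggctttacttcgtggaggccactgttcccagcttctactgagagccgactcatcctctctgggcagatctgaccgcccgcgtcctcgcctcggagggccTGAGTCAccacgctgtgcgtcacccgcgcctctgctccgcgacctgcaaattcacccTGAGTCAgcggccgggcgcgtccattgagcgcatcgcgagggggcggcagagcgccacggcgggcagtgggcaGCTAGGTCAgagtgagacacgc
Sod1, chr16:90220512-90220811, plus strand: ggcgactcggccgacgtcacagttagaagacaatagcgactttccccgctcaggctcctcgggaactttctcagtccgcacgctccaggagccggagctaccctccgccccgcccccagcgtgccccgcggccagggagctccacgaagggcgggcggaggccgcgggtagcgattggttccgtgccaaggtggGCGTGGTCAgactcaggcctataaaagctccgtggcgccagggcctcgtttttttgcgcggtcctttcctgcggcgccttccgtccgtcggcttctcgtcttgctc

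For the other 2 genes with a core, the 29 bases around it are given on the strand that reads TGACNNNGC, with the core in capitals.
Gclm, chr3:122245413-122245441, minus strand: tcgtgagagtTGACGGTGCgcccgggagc
Txnrd1, chr10:82859104-82859132, minus strand: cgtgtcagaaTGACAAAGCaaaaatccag
The core as searched lay at position -134 from the start in *Gclm*, -92 in *Txnrd1*, -56 in *Sod1* and 29 in *Srxn1*. In *Srxn1*, the TGANTCA match at -45 reads TGAGTCAGC with the next 2 bases. This differs from TGACNNNGC only by G for C, and forms of the core with that letter were not searched. Such a match is a string of letters, not a measured binding site.

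The libraries held 28035639 to 38332335 counts on genes, and a further 7.15% to 8.94% of reads were given to no gene. No read of *Lmo3* was counted (0 in each of the 6 libraries, where 3 reads correspond to 0.0768 to 0.111 CPM). The transgene is codon-optimized, so that the labels could not be checked through it. Adipocyte markers summed to 23726 to 26934 CPM in AdLacZ and 32337 to 38847 CPM in Ad*Lmo3*. Their AdLacZ means ran from 8.96 CPM for *Cidea* to 9648 CPM for *Lpl*. All 16 had a log2 fold change above 0 (median 0.57). Of these, 10 passed the threshold, where 2.71% of all tested genes passed as higher. Unfolded protein response genes summed to 7814 to 9776 CPM in AdLacZ and 4323 to 5467 CPM in Ad*Lmo3*. Of 12, 11 had a log2 fold change below 0 (median -0.72). Of the 12, 7 passed the threshold, all lower, where 1.57% of all tested genes passed as lower. The part of these shifts in the values below was not tested, and in bulk RNA fewer cells of a type and less RNA per cell cannot be told apart. Of the tested genes, none of 12 preadipocyte and fibroblast, 3 macrophage, 3 endothelial and 10 interferon response genes passed by edgeR, DESeq2 or limma voom. At an unadjusted p under 0.05 there was 1, an endothelial gene. The preadipocyte and fibroblast genes were high in all libraries too, summing to 20474 to 24590 CPM in AdLacZ and 19171 to 28132 CPM in Ad*Lmo3*. The Ad*Lmo3* libraries stood apart from each other in the interferon response genes, which summed to 614, 1361 and 3216 CPM in replicates 1, 2 and 3, against 1153 to 1553 CPM in AdLacZ libraries. All 10 of these genes were highest of the 6 libraries in Ad*Lmo3* replicate 3 and lowest in Ad*Lmo3* replicate 1. The part of this spread in the values below was not tested. Macrophage genes summed to at most 5.91 CPM and endothelial genes to at most 2.79 CPM, with *Tyrobp* at 0 and *Adgre1* and *Ptprc* at 2 reads or fewer in every library.

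**Figure D1:**
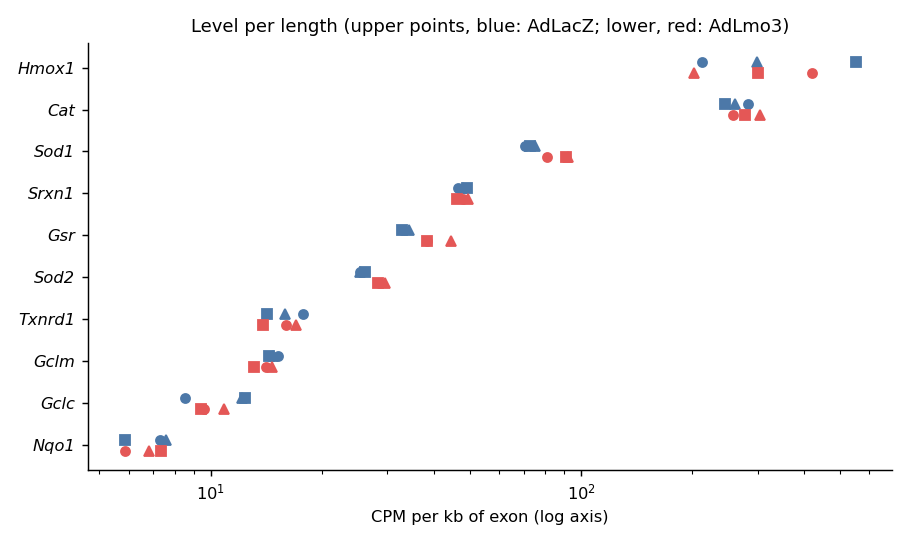
Level of each defence gene per length, in CPM per kb of exon on a log axis. Each point is 1 library, with AdLacZ in blue above and AdLmo3 in red below, and circle, square and triangle for replicates 1, 2 and 3. *Hmox1* and *Cat* lie highest and *Nqo1* lowest in both groups.

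Set against exon length (CPM per kb of all annotated exons), *Hmox1* and *Cat* were the highest. *Hmox1* had 354 ± 177 and *Cat* 263 ± 19.4 CPM per kb in AdLacZ libraries (SD, n = 3), and their ranges overlapped in both groups. Then came *Sod1* (72.7 ± 2.39 CPM per kb), *Srxn1* (47.9 ± 1.41), *Gsr* (33.3 ± 0.835) and *Sod2* (25.6 ± 0.440), each apart from its neighbours in both groups. *Txnrd1* (16.0 ± 1.80) and *Gclm* (14.8 ± 0.419) overlapped, and *Gclc* (11.0 ± 2.15) and *Nqo1* (6.90 ± 0.919) were lowest. The order by group means was the same in Ad*Lmo3* libraries. The length takes in every annotated exon, 10008 bp for *Sod2* and 3970 bp for *Sod1*, whether or not it is used in these cells. The order could differ with the lengths of the transcripts in use, which were not measured.

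Glutathione is made in a first step by glutamate-cysteine ligase, whose catalytic subunit is *Gclc* and whose modifier subunit is *Gclm*. *Gclc* (chromosome 9 of GRCm38, 77754535 to 77794485) had 32.1, 46.7 and 45.6 CPM in AdLacZ replicates 1, 2 and 3 and 36.2, 35.5 and 40.9 CPM in Ad*Lmo3* replicates 1, 2 and 3. All 3 Ad*Lmo3* values lay within the AdLacZ range, which AdLacZ replicate 1 opened downward. Ad*Lmo3* differed from AdLacZ libraries by -0.15 on the log2 scale (95% interval -0.47 to 0.17, standard error 0.139, adjusted p = 0.619). *Gclm* (chromosome 3, 122245557 to 122270732) was far steadier, with 95.5, 90.3 and 92.9 CPM in AdLacZ against 88.9, 82.3 and 92.3 CPM in Ad*Lmo3* libraries. Its groups overlapped through 1 Ad*Lmo3* library, and the difference was -0.08 (95% interval -0.23 to 0.07, standard error 0.0657, adjusted p = 0.552). In *Gclm*, 4.71% of the exon bases overlap other genes.

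*Gsr*, on chromosome 8 from 33652523 to 33698163, encodes glutathione reductase, which returns oxidized glutathione to its reduced form with NADPH. It had 90.7, 90.2 and 94.4 CPM in AdLacZ and 106, 105 and 123 CPM in Ad*Lmo3* libraries. Every Ad*Lmo3* library was above every AdLacZ library, and Ad*Lmo3* replicate 3 was the highest. The difference of 0.28 on the log2 scale (standard error 0.0759, 95% interval 0.10 to 0.45) is 1.21-fold, and its adjusted p of 0.0860 missed the threshold. With DESeq2 the adjusted p was 0.0261, and over all alternatives it ran from 0.0261 to 0.213, with the log2 fold change between 0.20 and 0.32.

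**Figure D2:**
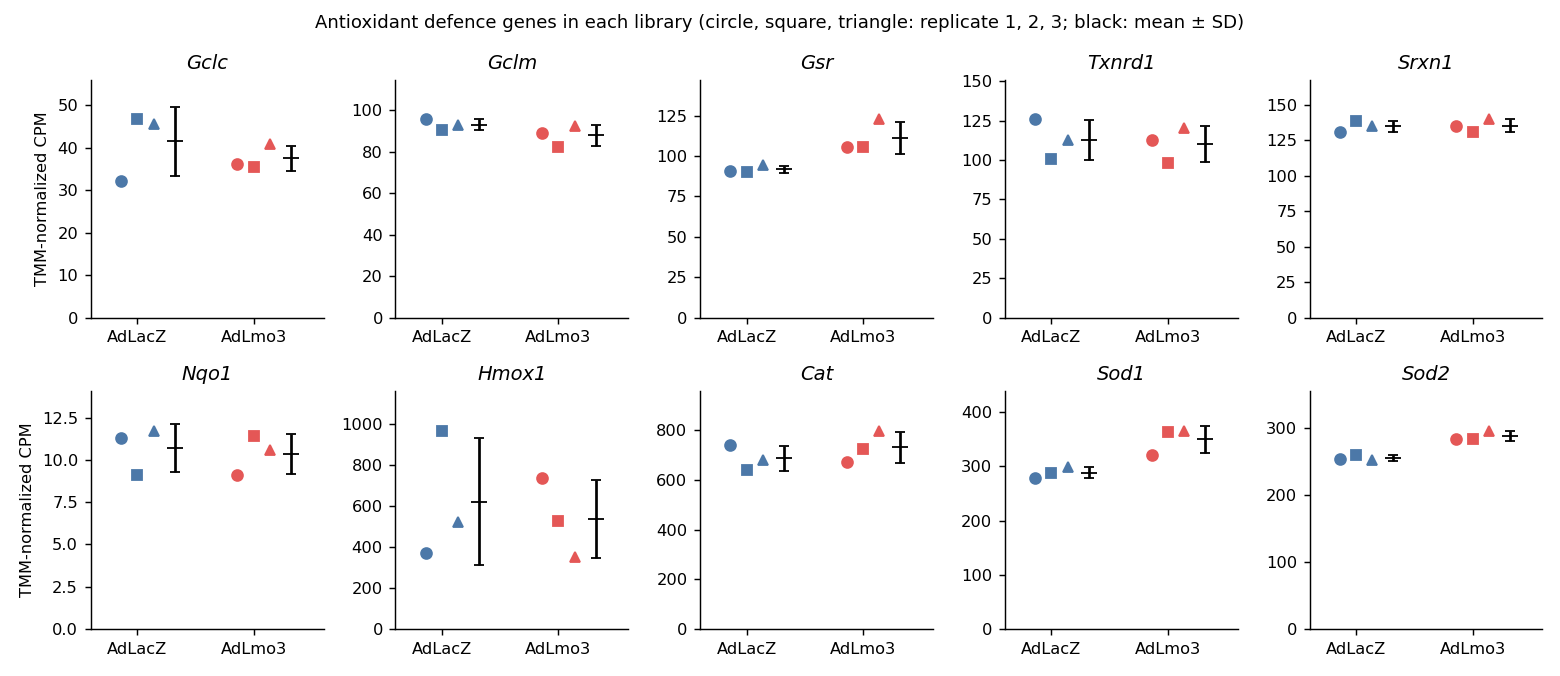
TMM-normalized CPM of the 10 defence genes in each library, 1 panel a gene with the axis from 0. Colored points are libraries and black bars are the group mean ± SD (n = 3). The groups are apart in *Gsr*, *Sod1* and *Sod2* and overlap in the other 7, and *Hmox1* varies most within each group.

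Thioredoxin reductase 1, encoded by *Txnrd1* (chromosome 10, 82833951 to 82897712), is the cytosolic selenoenzyme that keeps thioredoxin reduced. *Txnrd1* had 126, 100 and 113 CPM in AdLacZ and 113, 97.9 and 120 CPM in Ad*Lmo3* libraries. The groups covered almost the same range, and replicate 2 was the lowest library in both. The log2 fold change of -0.03 had a 95% interval of -0.28 to 0.21 (standard error 0.106, adjusted p = 0.902).

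*Srxn1* (chromosome 2, 152105516 to 152111376) encodes sulfiredoxin, which repairs overoxidized peroxiredoxins. Its levels were 131, 139 and 135 CPM in AdLacZ and 135, 131 and 140 CPM in Ad*Lmo3* libraries. This was among the steadiest genes of the experiment, as 5.52% of all tested genes had a smaller SD of log2 CPM within groups. The difference was 0.00 on the log2 scale (adjusted p = 0.984, standard error 0.0621), and its 95% interval, -0.14 to 0.15, ends at 0.908-fold and 1.11-fold. *Srxn1* had the smallest difference of the 10, which is why its start region is printed above.

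The quinone reductase gene *Nqo1*, on chromosome 8 from 107388225 to 107403206, is the gene most often read as a sign of NRF2 activity. It was the lowest of the 10, at 11.3, 9.09 and 11.7 CPM in AdLacZ and 9.10, 11.4 and 10.6 CPM in Ad*Lmo3* libraries. The ranges were nearly the same. The difference was -0.05 on the log2 scale (95% interval -0.36 to 0.26, standard error 0.136, adjusted p = 0.891), and its sign changed when AdLacZ replicate 3 (0.02) or Ad*Lmo3* replicate 1 (0.05) was left out.

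*Hmox1* (chromosome 8, 75093621 to 75100589) encodes the inducible heme oxygenase, which splits heme into biliverdin, iron and carbon monoxide. It had 371, 967 and 522 CPM in AdLacZ and 735, 525 and 353 CPM in Ad*Lmo3* libraries. The groups overlapped over most of their range, as the highest library held 2.61 times the lowest in AdLacZ and 2.08 times in Ad*Lmo3*. The SD of its log2 CPM within groups exceeded that of 98.9% of the tested genes. Between the groups it differed by -0.21 on the log2 scale (adjusted p = 0.801, standard error 0.362), with a 95% interval of -1.04 to 0.62, or from 0.487-fold to 1.54-fold. Without AdLacZ replicate 2 the log2 fold change was 0.27, and without Ad*Lmo3* replicate 3 it was 0.02.

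**Figure D3:**
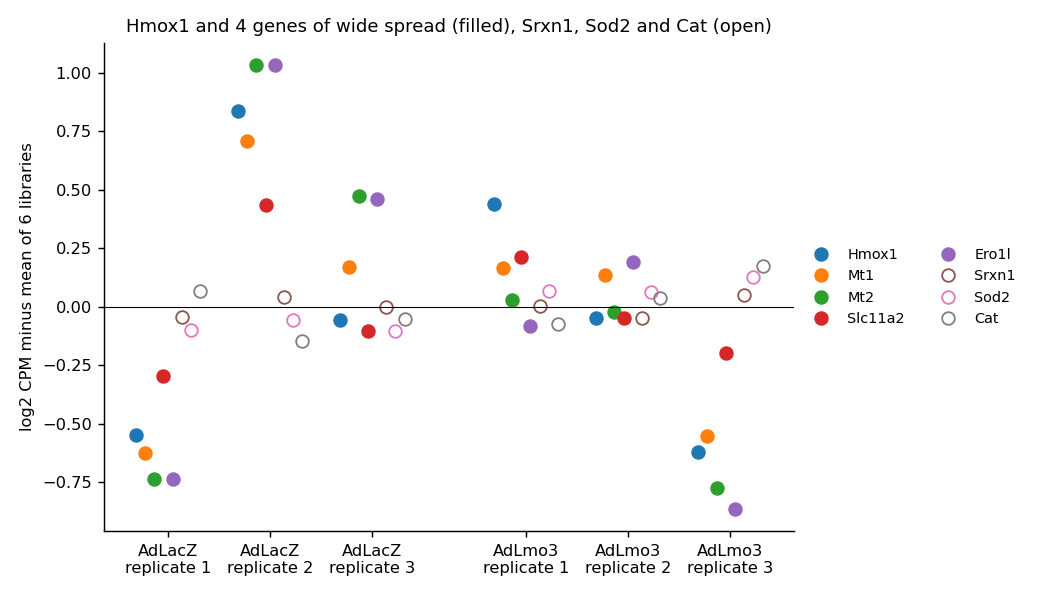
Log2 CPM of single genes in each library, minus the gene's mean over the 6 libraries. Filled points are *Hmox1*, *Mt1*, *Mt2*, *Slc11a2* and *Ero1l*, and open points are *Srxn1*, *Sod2* and *Cat*. The filled points are highest in AdLacZ replicate 2 and lowest in AdLacZ replicate 1 and Ad*Lmo3* replicate 3, while the open points stay near 0.

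The libraries were ordered in the same way in other stress-responsive genes. *Mt1*, a metallothionein that binds zinc and copper, had 125, 314 and 216 CPM in AdLacZ and 215, 211 and 131 CPM in Ad*Lmo3* libraries. *Mt2*, its neighbor on chromosome 8, had 69.6, 237 and 161 CPM in AdLacZ and 118, 114 and 67.8 CPM in Ad*Lmo3* libraries, although 73.5% of its exon bases overlap another gene. Like *Hmox1*, both were highest in AdLacZ replicate 2 and lowest in AdLacZ replicate 1 and Ad*Lmo3* replicate 3. The iron transporter gene *Slc11a2* followed the same order, with 109, 181 and 125 CPM in AdLacZ and 155, 130 and 117 CPM in Ad*Lmo3* libraries. None of the 3 passed the threshold (adjusted p = 0.737 for *Mt1*, 0.414 for *Mt2* and 0.927 for *Slc11a2*). This order in both groups was shown by 12 of 131 tested pathway genes and by 4.01% of all tested genes. It was looked for after the values of *Hmox1* had been seen and was not tested.

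Catalase, the peroxisomal enzyme that splits hydrogen peroxide, is encoded by *Cat* (chromosome 2, 103453849 to 103485160). *Cat* had 739, 638 and 681 CPM in AdLacZ and 671, 724 and 798 CPM in Ad*Lmo3* libraries. The groups overlapped, with Ad*Lmo3* replicate 3 the highest of all. *Cat* differed by 0.09 on the log2 scale (95% interval -0.12 to 0.30, standard error 0.0912, adjusted p = 0.635).

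*Sod1*, on chromosome 16 from 90220754 to 90226329, encodes the copper-zinc superoxide dismutase of the cytosol. It had 279, 288 and 298 CPM in AdLacZ and 321, 363 and 366 CPM in Ad*Lmo3* libraries. The groups did not overlap, and *Sod1* had the smallest p-value of the 10. The difference was 0.28 on the log2 scale (95% interval 0.10 to 0.45, standard error 0.0754), or 1.21-fold, with an adjusted p of 0.0851 that missed the threshold. DESeq2 gave an adjusted p of 0.0134, and over all alternatives it ran from 0.0134 to 0.252, with log2 fold changes of 0.20 to 0.34.

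*Sod2* (chromosome 17, 13006846 to 13040063) encodes the manganese superoxide dismutase of mitochondria. It had 254, 261 and 253 CPM in AdLacZ and 285, 284 and 297 CPM in Ad*Lmo3* libraries, again without overlap. The libraries of a group lay very close, and 1.64% of all tested genes had a smaller SD of log2 CPM. The log2 fold change of 0.17 (standard error 0.0611, 95% interval 0.03 to 0.31), or 1.13-fold, had an adjusted p of 0.159, and of 0.0829 with DESeq2. In *Sod2*, 16.2% of the stretches of 75 bases, the read length, occur in other genes as well.

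The groups thus did not overlap in 3 of the 10 genes, each higher in Ad*Lmo3* libraries, where 26.5% of all tested genes had groups apart (13.3% higher and 13.2% lower). Scaled by library totals alone, which lowered the median of all tested genes by 0.07 on the log2 scale, the log2 fold changes were 0.20 for *Gsr*, 0.20 for *Sod1* and 0.10 for *Sod2*. Within the Ad*Lmo3* group, replicate 3 was the highest in 8 of the 10 genes, and replicate 2 the lowest in 6. The matching shares of all tested genes were not counted, so these counts may belong to the library as a whole. Replicate 3 also had the fewest counts (28035639), the largest share of reads given to no gene (8.94%) and the highest interferon response genes. The part of each was not tested. Without Ad*Lmo3* replicate 3 the log2 fold changes were 0.20 for *Gsr*, 0.24 for *Sod1* and 0.15 for *Sod2* (adjusted p = 0.193, 0.198 and 0.335). In AdLacZ libraries no replicate was the highest in more than 4.

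**Figure D4:**
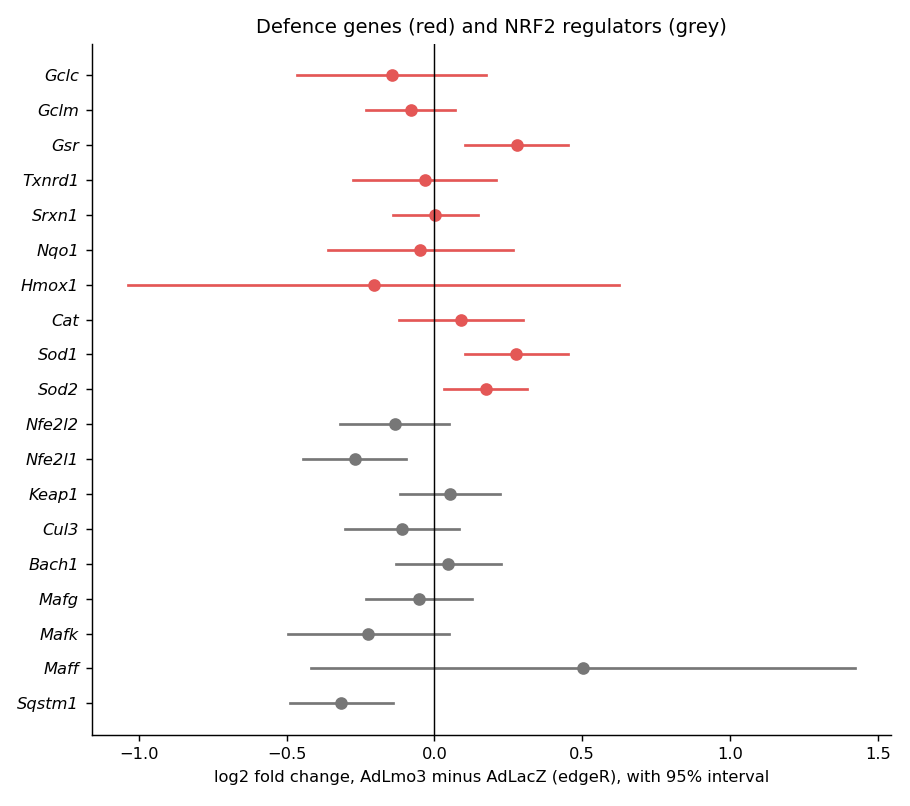
Log2 fold change of AdLmo3 against AdLacZ libraries (edgeR) with its 95% interval, not adjusted for the number of genes, for the 10 defence genes in red and 9 regulators of NRF2 in grey. Most intervals hold 0, those of *Gsr*, *Sod1* and *Sod2* lie above it, and those of *Nfe2l1* and *Sqstm1* lie below it.

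The machinery that controls NRF2 was counted well, and none of its 9 genes passed the threshold by edgeR. Of these, 3 were above and 6 below 0 (median log2 fold change -0.11). At an unadjusted p under 0.05 there were 2, where 20.6% of all tested genes were. *Nfe2l2* itself had 122, 128 and 134 CPM in AdLacZ and 128, 111 and 110 CPM in Ad*Lmo3* libraries, a difference of -0.14 on the log2 scale (adjusted p = 0.392, standard error 0.0797). *Keap1*, its inhibitor, had 95.3, 100.3 and 100.1 CPM in AdLacZ and 92.9, 106 and 108 CPM in Ad*Lmo3* libraries (0.05, adjusted p = 0.749), with 10.9% of its exon bases in an antisense gene. Both pairs of groups overlapped. *Cul3*, which builds the ubiquitin ligase with KEAP1, and *Bach1*, a repressor on the same DNA elements, differed by -0.11 and 0.05 (adjusted p = 0.520 and 0.785).

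The small MAF partner genes *Mafg* (-0.05), *Mafk* (-0.22) and *Maff* (0.50) had adjusted p-values of 0.763, 0.336 and 0.543. *Maff* had 5.14, 20.1 and 10.6 CPM in AdLacZ libraries, the widest spread of the 9. *Sqstm1* encodes p62, an autophagy receptor that can draw KEAP1 away from NRF2. It had 1037, 1106 and 1058 CPM in AdLacZ and 919, 824 and 830 CPM in Ad*Lmo3* libraries, with all Ad*Lmo3* values lower. *Sqstm1* differed by -0.32 on the log2 scale (adjusted p = 0.0601, standard error 0.0758). It passed with DESeq2 (adjusted p = 0.00147), limma voom (0.0471) and library totals alone (0.0294), and 17.3% of its exon bases overlap the gene *Mrnip*.

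*Nfe2l1*, a relative of NRF2 anchored in the ER that drives proteasome genes, had 1234, 1244 and 1348 CPM in AdLacZ and 1052, 1108 and 1012 CPM in Ad*Lmo3* libraries. Its groups did not overlap, and the difference was -0.27 (adjusted p = 0.0919, standard error 0.0758). *Nfe2l1* passed with DESeq2 (adjusted p = 0.00981) and with library totals alone (0.0412).

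Around these genes, 10 lists of the pathway held 147 genes, of which 131 were tested, 7 rose and 7 fell (10.7% called, against 4.28% of all tested genes). Their median log2 fold change was 0.03. Without AdLacZ replicate 1, 2 or 3 the count of called genes was 9, 5 and 1. Without Ad*Lmo3* replicate 1, 2 or 3 it was 14, 2 and 8. With DESeq2 it was 29, where 8.55% of its tested genes passed. Scaled by library totals alone, 5 rose and 15 fell. At an unadjusted p under 0.05 there were 49 of 131, where 20.6% of all tested genes were. For each list below, the shares of all tested genes are again 4.28% by edgeR, 8.55% by DESeq2 and 20.6% by unadjusted p. In counts of lists, rose and fell mean higher or lower in Ad*Lmo3* libraries and past the threshold.

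**Figure D5:**
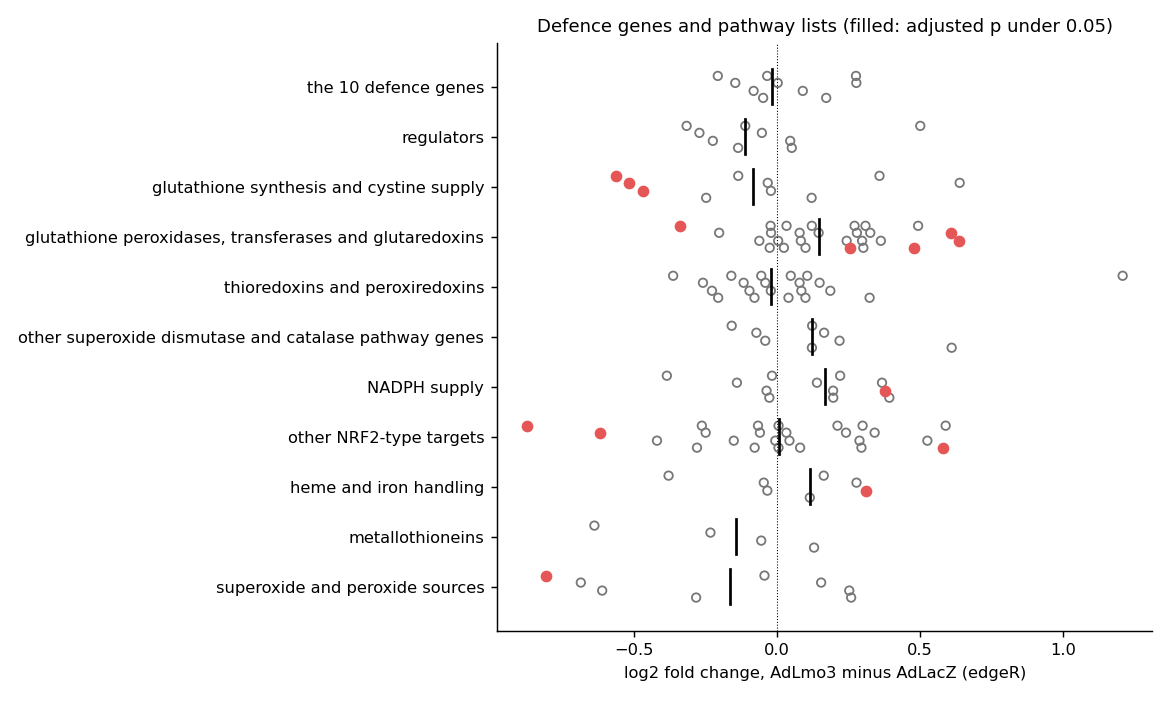
Log2 fold change (AdLmo3 against AdLacZ, edgeR) of each tested gene of the 10 defence genes and of 10 pathway lists. Filled points passed the threshold, open points did not, and the bar is the list median. The called genes lie on both sides of 0, and none is among the 10 defence genes, the regulators, the thioredoxin and peroxiredoxin list, the other superoxide dismutase and catalase genes or the metallothioneins.

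Of 10 tested genes for glutathione synthesis and cystine supply, 3 fell, none rose and 7 did not pass. *Slc3a2*, which encodes the heavy chain that carries the cystine transporter and other amino acid transporters to the membrane, had 342, 347 and 349 CPM in AdLacZ and 282, 213 and 232 CPM in Ad*Lmo3* libraries (log2 fold change -0.51, standard error 0.103, adjusted p = 0.0331). *Chac1*, a glutathione-degrading enzyme and target of ATF4, fell by 0.56 on the log2 scale (adjusted p = 0.0308). *Oplah*, the 5-oxoprolinase of the glutathione cycle, fell by 0.47 (standard error 0.0608, adjusted p = 0.00780), with 11.7% of its exon bases in other genes. *Chac1* and *Slc3a2* each lost the call in 5 of the 6 fits without 1 library and *Oplah* in 1. *Slc7a11*, the cystine transporter and an NRF2 and ATF4 target, was chosen after its values were seen. It had 18.5, 13.8 and 14.1 CPM in AdLacZ and 17.2, 17.1 and 38.4 CPM in Ad*Lmo3* libraries. Ad*Lmo3* replicate 3 thus stood alone (log2 fold change 0.64, adjusted p = 0.291), and without it the log2 fold change was 0.15.

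Among 27 tested glutathione peroxidases, transferases and glutaredoxins, 4 rose, 1 fell and 22 did not pass (median log2 fold change 0.15). *Gpx1*, the glutathione peroxidase of cytosol and mitochondria, had 115, 94.4 and 96.5 CPM in AdLacZ and 145, 141 and 141 CPM in Ad*Lmo3* libraries, with no overlap (log2 fold change 0.48, standard error 0.0853, adjusted p = 0.0218). *Mgst3*, a membrane-bound glutathione transferase, had 93.0, 88.0 and 83.3 CPM in AdLacZ and 120, 147 and 144 CPM in Ad*Lmo3* libraries (0.64, standard error 0.0913, adjusted p = 0.0112). *Mgst2*, of the same family, rose by 0.61 (adjusted p = 0.0238). Of the 6 fits without 1 library, *Gpx1* lost the call in 3 (adjusted p up to 0.116), *Mgst3* in 2 (up to 0.0711) and *Mgst2* in 5 (up to 0.109). *Hagh*, the glyoxalase II gene, rose by 0.26 (adjusted p = 0.0442), a call that 9 of 13 alternatives did not keep.

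Of 21 tested thioredoxin and peroxiredoxin genes none passed the threshold by edgeR (median log2 fold change -0.02, 8 at an unadjusted p under 0.05), 2 did by DESeq2 and none by limma voom. *Prdx1*, a peroxiredoxin under NRF2 control, had 307, 252 and 291 CPM in AdLacZ and 302, 285 and 323 CPM in Ad*Lmo3* libraries (0.10, adjusted p = 0.601). *Txnip*, which binds and inhibits thioredoxin and responds to glucose, had 253, 265 and 242 CPM in AdLacZ and 209, 812 and 737 CPM in Ad*Lmo3* libraries. Ad*Lmo3* replicates 2 and 3 were above every AdLacZ library, and Ad*Lmo3* replicate 1 was below every AdLacZ library. The log2 fold change of 1.21 (standard error 0.413) had an adjusted p of 0.148. Without Ad*Lmo3* replicate 1 it was 1.62 (adjusted p = 0.000737), and 19.4% of the *Txnip* exon bases overlap an antisense gene.

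Of the other superoxide dismutase and catalase pathway genes, none of 8 passed by edgeR or limma voom and 1 did by DESeq2 (median log2 fold change 0.12, 3 at an unadjusted p under 0.05). The secreted dismutase gene *Sod3* had 242, 232 and 202 CPM in AdLacZ and 260, 270 and 258 CPM in Ad*Lmo3* libraries (0.22, standard error 0.0806, adjusted p = 0.172), and *Ucp2*, a mitochondrial carrier, differed by 0.17 (adjusted p = 0.275). In the NADPH supply, which feeds both glutathione and thioredoxin reductases, 1 of 12 genes rose and none fell. *Taldo1*, the transaldolase of the pentose phosphate pathway, had 239, 229 and 225 CPM in AdLacZ and 292, 312 and 296 CPM in Ad*Lmo3* libraries (0.38, standard error 0.0649, adjusted p = 0.0196). *Taldo1* lost the call in 3 of the 6 fits without 1 library, without AdLacZ replicate 2 (adjusted p = 0.0588), AdLacZ replicate 3 (0.109) or Ad*Lmo3* replicate 2 (0.0902). *Idh1* (0.22, adjusted p = 0.249) and *Tkt* (0.20, adjusted p = 0.176) did not pass.

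Of 25 further tested genes known as NRF2-type targets, 1 rose, 2 fell and 22 did not pass (median log2 fold change 0.01). *Abcc4*, an exporter of organic anions and cyclic nucleotides, had 61.2, 59.3 and 66.3 CPM in AdLacZ and 38.1, 32.1 and 31.5 CPM in Ad*Lmo3* libraries (-0.87, standard error 0.0886, adjusted p = 0.00352), and its call was kept in 13 of 13 alternatives. *Cyb5r1*, a cytochrome b5 reductase, fell by 0.62 (adjusted p = 0.0103). *Cbr3*, a carbonyl reductase, had 45.0, 61.3 and 52.6 CPM in AdLacZ and 77.0, 86.1 and 74.6 CPM in Ad*Lmo3* libraries (0.58, standard error 0.113, adjusted p = 0.0296). Without single libraries *Cbr3* lost the call in 3 of 6 fits (adjusted p up to 0.133) and *Cyb5r1* in 2 (up to 0.0666).

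In heme and iron handling, 1 of 7 tested genes rose and none fell. *Hmox2*, the constitutive heme oxygenase, had 44.2, 43.5 and 45.4 CPM in AdLacZ and 51.4, 56.7 and 57.2 CPM in Ad*Lmo3* libraries (0.31, standard error 0.0645, adjusted p = 0.0378). It was thus steady within groups where *Hmox1* was not. The call was lost in 7 of 13 alternatives, and 40.2% of its exon bases overlap the opposite-strand gene *Cdip1*. *Alas1*, the first enzyme of heme synthesis, differed by 0.12 (adjusted p = 0.623). None of 4 tested genes of the metallothionein list passed by edgeR, DESeq2 or limma voom (median log2 fold change -0.14, 0 at an unadjusted p under 0.05).

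Of 8 tested genes that give rise to superoxide or hydrogen peroxide, 1 fell and none rose, and 9 of the 17 listed were too low to test. *Maoa*, the monoamine oxidase of the outer mitochondrial membrane, which yields hydrogen peroxide, had 186, 144 and 171 CPM in AdLacZ and 122, 77.6 and 86.6 CPM in Ad*Lmo3* libraries (-0.81, standard error 0.168, adjusted p = 0.0389). It lost the call in 5 of 6 fits without 1 library. *Ero1l*, the ER oxidase that passes electrons to oxygen during disulfide formation, had 659, 2248 and 1511 CPM in AdLacZ and 1037, 1255 and 603 CPM in Ad*Lmo3* libraries. Its AdLacZ libraries were ordered as those of *Hmox1*, and the groups overlapped (-0.61, standard error 0.415, adjusted p = 0.463).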

How the data were processed

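RNA-Seq libraries (75 bp single reads) of 3 AdLacZ and 3 AdLmo3 infections were used. The authors deposited raw read counts per gene symbol. The submitters' processing notes name bcl2fastq, STAR 2.5.0b, DESeq2 1.6.3 and mm10. The counting program, its strand setting and the annotation are not given in the sources used here. Library totals were 28035639 to 38332335 counts, leaving out rows that name no gene (7.15% to 8.94% of reads with no feature, 0.476% to 0.543% ambiguous).

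Genes were filtered with filterByExpr (minimum count 10), scaled by TMM (factors 0.964 to 1.04) and tested with edgeR 4.0.16's quasi-likelihood test in R 4.3.3, with Benjamini-Hochberg adjustment over 12766 genes and a threshold of 0.05. CPM values are TMM-normalized. Intervals are the log2 fold change plus or minus the t quantile times the standard error. DESeq2 1.42.0, limma 3.58.1 (voom) and 11 other settings were alternatives. The fits were tested on simulated data with known changes. Those changes were larger than any difference of the 10 genes, so the simulation does not show how often differences of that size are found. The design text given with the deposited data names 3 separate infections per virus, so p-values measure the spread between infections. An exact permutation test of 3 against 3 cannot go below 0.1. Replicates differed beyond sampling noise, with a chi-square per degree of freedom of 22.9 or more.

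Named were all 10 genes, all NRF2 regulators and, from each other list, up to 4 called genes by p-value or, with fewer than 2 called, the 2 highest expressed as well; *Slc7a11* was added after its values were seen, and 1 gene that the rule names is not reported here. Members and lists were chosen with earlier results of these data known. Positions and exon lengths are from GENCODE vM21 (GRCm38), start regions from RefSeq.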

Additional observations from a re-analysis of the deposited data

How the results depend on the processing

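The direction held under all 13 alternatives for *Gsr* (0.20 to 0.32), *Sod1* (0.20 to 0.34), *Sod2* (0.10 to 0.19), *Cat* (0.02 to 0.15), *Gclc* (-0.30 to -0.05) and *Gclm* (-0.15 to -0.03), as log2 fold changes. With DESeq2, 2 of the 10 genes passed, *Gsr* and *Sod1* (both 0.28), and none did under the other alternatives (0 to 0 without single libraries). The sign of 4 other genes reversed. These were *Nqo1* (-0.15 to 0.045 without single libraries, above 0 without AdLacZ replicate 3 or AdLmo3 replicate 1), *Hmox1* (-0.49 to 0.27, above 0 without AdLacZ replicate 2 or AdLmo3 replicate 3), *Srxn1* (-0.070 with library totals only and -0.021 to 0.028 without single libraries, below 0 without AdLacZ replicate 1 or AdLmo3 replicate 3) and *Txnrd1* (-0.11 to 0.051, above 0 without AdLacZ replicate 1 or AdLmo3 replicate 2). *Keap1* (-0.021) and *Bach1* (-0.027) reversed with library totals only, and without single libraries *Mafg* (-0.11 to 0.012), *Slc11a2* (-0.19 to 0.20) and *Mt1* (-0.51 to 0.13) did. The cause was not tested. Of all tested genes 547 were called (346 higher, 201 lower), against 1104 (671 and 433) with DESeq2, 767 (266 and 501) with library totals only, and 77 to 501 (55 to 354 higher, 22 to 147 lower) without single libraries, lowest without AdLacZ replicate 3. Pathway genes called were 14 (7 and 7), 29 (15 and 14) with DESeq2, 20 (5 and 15) with library totals only, and 1 to 14 (0 to 7 higher, 1 to 7 lower) without single libraries. Same-numbered samples deviated together with correlations of 0.0508, 0.225 and 0.234, and pairs of unlike number with -0.314 to 0.175. AdLacZ replicates 2 and 3 correlated best with the AdLmo3 replicate of their own number. AdLacZ replicate 1 correlated best with AdLmo3 replicate 3 (0.122). Whether same-numbered samples were handled together is not given in the labels and was not tested. A replicate block gave 498 calls, adjusted p-values of 0.0749 for *Gsr*, 0.0814 for *Sod1* and 0.197 for *Sod2*, and no call of *Hagh* (0.0677) or *Hmox2* (0.0540).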
